A study of Mus musculus with 10 samples.

Results

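The 10 genes described here encode parts of the Notch pathway: the ligands *Dll1*, *Dll4*, *Jag1* and *Jag2*, the receptors *Notch1*, *Notch2*, *Notch3* and *Notch4*, the glycosyltransferase *Lfng* and the target gene *Hes1*. They were chosen by gene symbol for their place in the pathway, and no measured value entered that rule, but earlier results of these data were known. They are 10 of the 35663 entries in a table of bulk RNA-seq values from whole mouse kidneys at E13.5 (days of embryonic development). The study asked what netrin 1, a protein secreted by the kidney stroma and encoded by *Ntn1*, does in kidney development. Its 10 libraries, all labelled as strain C57/b6, come from 4 samples of wild-type kidneys, 3 of control kidneys with the genotype *Foxd1-Cre*, and 3 of mutant kidneys with the genotype *Foxd1-Cre; Ntn1c/c*. Below, these groups are called *Foxd1GC* control and *Ntn1SPKO*. The *Foxd1GC* allele makes Cre recombinase in stromal progenitors and takes the place of a copy of *Foxd1*, so controls and mutants share that loss and wild-type kidneys do not have it. The deletion of *Ntn1* is therefore limited to cells of the *Foxd1* lineage, whereas the RNA comes from all cells of the kidney. The labels do not say how many kidneys or embryos went into a library, so each p below measures the spread between these samples, which may be technical.

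Notch signalling passes between cells in contact. A ligand on one cell binds a receptor on its neighbour, the receptor is cut by an ADAM protease and by gamma-secretase, and its freed intracellular domain joins *Rbpj* and Mastermind proteins on DNA to switch on target genes such as Hes and Hey family members. Fringe enzymes such as *Lfng* add sugars to the receptor's extracellular repeats and change which ligands it answers to. In the forming nephron, *Notch2* and *Jag1* are known for their part in proximal fates, and *Notch4* and *Dll4* are known as genes of endothelial cells.

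*Ntn1* was at 31.9, 28.4, 27.1 and 46.3 FPKM (fragments scaled by transcript length and library size) in wild-type replicates 1 to 4, at 40.7, 24.2 and 51.4 FPKM in *Foxd1GC* control replicates 1 to 3, and at 16.3, 13.1 and 10.7 FPKM in *Ntn1SPKO* replicates 1 to 3. All 3 *Ntn1SPKO* libraries lay below the other 7, which is the direction the labels give. The table holds FPKM and no counts, and its low values showed no clean step of 1 read, so the depth behind each value is unknown. Wild-type replicate 3 stood apart by coding length: its median log2 deviation from the median of the 10 libraries was −0.30 over 951 genes whose coding sequence has 4000 or more bases and 0.21 over 4125 genes of at most 1000 bases, against −0.13 to 0.05 and −0.03 to 0.06 in the other libraries. *Foxd1GC* control replicate 3 stood apart by tissue markers, with 111 FPKM summed over 10 ureteric bud markers and 458 FPKM over 12 skeletal muscle markers, where the other libraries had 237 to 279 and 57.0 to 133. Y-linked transcripts were present in wild-type replicate 3, *Foxd1GC* control replicate 2 and all 3 *Ntn1SPKO* libraries, so embryo sex and genotype are partly confounded. With embryo sex as a covariate, the *Ntn1SPKO* libraries are therefore compared with control replicate 2 alone or with wild-type replicate 3 alone. Summed red blood cell markers ranged from 4767 to 18630 FPKM and were highest in *Ntn1SPKO* replicate 3 and *Foxd1GC* control replicates 1 and 3.

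Every member passed the filter, a mean of 0.5 FPKM or more over the libraries fitted, in each comparison. By mean FPKM over the 10 libraries the order was *Hes1* (44.9 ± 5.18, SD, n = 10), *Notch2* (24.7 ± 3.75), *Jag1* (20.9 ± 5.56), *Notch3* (14.4 ± 1.84), *Notch1* (13.2 ± 2.74), *Lfng* (8.72 ± 1.61), *Dll1* (5.30 ± 1.88), *Notch4* (4.85 ± 2.50), *Dll4* (2.73 ± 0.468) and *Jag2* (1.97 ± 0.915). FPKM is per length, so these levels can be set side by side. *Hes1* was above *Notch2* in all 10 libraries with ranges that do not touch, and all other neighbours in this order overlap in range. Within single libraries the order was steadier than the ranges: *Notch2* was above *Jag1* in 7, *Jag1* above *Notch3* in 9, *Notch1* above *Lfng* in 10, *Lfng* above *Dll1* in 10, and *Dll1* above *Notch4* in 5 of the 10, so the last pair cannot be ordered.

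*Notch2* was the most abundant receptor and *Jag1* the most abundant ligand in every library. *Notch2* made up 43.3% ± 3.55 (SD, n = 10) of the summed receptor FPKM, *Notch3* 25.3%, *Notch1* 23.1% and *Notch4* 8.23%. *Jag1* made up 66.9% ± 7.43 (SD, n = 10) of the summed ligand FPKM, *Dll1* 16.8%, *Dll4* 9.53% and *Jag2* 6.78%. The summed ligands came to 36.0 ± 4.00 FPKM in wild-type (n = 4), 26.1 ± 8.87 FPKM in *Foxd1GC* control (n = 3) and 29.0 ± 1.69 FPKM in *Ntn1SPKO* kidneys (n = 3). The summed receptors came to 57.8 ± 12.2, 54.6 ± 5.77 and 59.0 ± 5.94 FPKM in the same order. The sums of both classes overlap between all groups except the ligands of *Ntn1SPKO* kidneys, which lie below those of all 4 wild-type libraries.

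**Figure D1:**
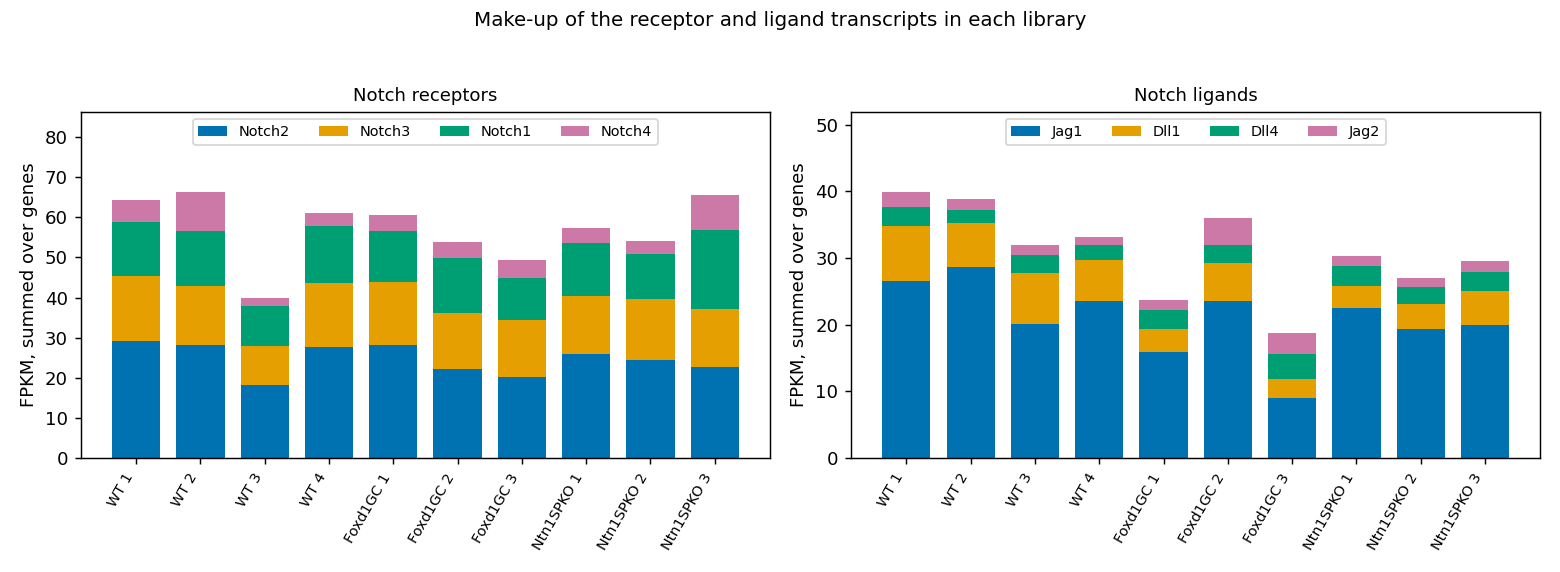
Stacked bars of FPKM for the 4 receptors (left) and the 4 ligands (right) in each of the 10 libraries, with the wild-type (WT), *Foxd1GC* control and *Ntn1SPKO* libraries from left to right. *Notch2* and *Jag1* are the largest blocks in every bar, wild-type replicate 3 has the shortest receptor bar and *Foxd1GC* control replicate 3 the shortest ligand bar.

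*Lfng* and *Dll1* were the members whose *Ntn1SPKO* libraries did not overlap a comparison group, and *Hes5*, a target gene that is no member, differed most from wild-type kidneys among the other pathway genes. Their upstream sequences from RefSeq (GRCm38.p6) are shown because these 3 genes carry the differences described below, with capitals marking the letters TGGGAA, the core of the motif that *Rbpj* binds, on either strand (TTCCCA on the other). The *Lfng* run is 229 bases at chr5:140607091-140607319 (plus strand), cut where the first annotated transcript begins. The *Dll1* run is 250 bases at chr17:15376933-15377182 (minus strand), before the farther of its 2 RefSeq starts, and the *Hes5* run is 250 bases at chr4:154960673-154960922 (plus strand).
*Lfng*: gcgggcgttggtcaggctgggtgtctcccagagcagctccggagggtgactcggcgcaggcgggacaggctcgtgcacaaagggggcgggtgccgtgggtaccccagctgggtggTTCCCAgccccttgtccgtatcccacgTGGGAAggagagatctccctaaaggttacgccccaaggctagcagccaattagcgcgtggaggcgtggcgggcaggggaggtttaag
*Dll1*: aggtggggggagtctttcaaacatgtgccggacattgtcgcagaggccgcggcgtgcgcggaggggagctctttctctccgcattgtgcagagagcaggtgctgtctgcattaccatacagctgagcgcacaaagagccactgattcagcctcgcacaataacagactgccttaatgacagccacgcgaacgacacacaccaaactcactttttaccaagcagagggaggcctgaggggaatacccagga
*Hes5*: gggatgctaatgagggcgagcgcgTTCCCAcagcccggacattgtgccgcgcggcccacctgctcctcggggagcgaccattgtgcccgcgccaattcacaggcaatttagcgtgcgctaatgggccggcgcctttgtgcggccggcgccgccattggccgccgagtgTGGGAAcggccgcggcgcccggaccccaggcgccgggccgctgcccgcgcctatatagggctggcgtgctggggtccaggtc

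The *Lfng* window holds 2 matches, at −135 to −130 on the minus and −108 to −103 on the plus strand relative to the RefSeq start, and the *Hes5* window also holds 2, at −226 to −221 on the minus and −82 to −77 on the plus strand. In both genes the upstream match is on the minus strand and the downstream one on the plus strand, at unlike spacing. Among the other target genes with a window, *Hes7* and *Hey2* had 1 match each and *Hes6* and *Nrarp* had 0. Whether *Rbpj* binds at any of these matches was not tested. The *Dll1* window holds 0 matches. Of all 32851 RefSeq windows of 250 bases, 21.6% hold at least 1 match and 2.77% hold 2 or more. Of the 10 members, 9 were found among these windows, with 10 windows in all, and *Lfng* was the member with a match. *Hes1* was the member without an entry.

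*Dll1*, a ligand of the Delta type made by early nephron cells, was lower in both groups that carry *Foxd1GC* than in wild-type kidneys. The gene spans 15367354 to 15376872 of chromosome 17 in GRCm38 (ENSMUSG00000014773.13), as given by the GENCODE M21 annotation used for all positions of genes. Its levels were 8.20, 6.57, 7.70 and 6.12 FPKM in wild-type replicates 1 to 4, 3.48, 5.74 and 2.84 FPKM in *Foxd1GC* control replicates 1 to 3, and 3.37, 3.83 and 5.13 FPKM in *Ntn1SPKO* replicates 1 to 3. The lowest wild-type library was above the highest of the other 6, while controls and *Ntn1SPKO* kidneys spanned much the same range. Group means were 7.15 ± 0.971 FPKM (SD, n = 4), 4.02 ± 1.52 FPKM (n = 3) and 4.11 ± 0.911 FPKM (n = 3).

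Fold changes below are given with their standard error (SE) and are differences of group means of log2(FPKM + 0.1) tested with limma over all genes, with Benjamini-Hochberg adjustment, and single genes also have a two-sided exact permutation test, whose smallest p is 0.0286 for 3 libraries against 4 and 0.1 for 3 against 3. For *Dll1* the log2 fold change was −0.79 (SE 0.17, adjusted p = 0.259 by limma, p = 0.0286 by exact permutation) between *Ntn1SPKO* and wild-type kidneys. Between *Foxd1GC* control and wild-type kidneys it was −0.87 (SE 0.23, adjusted p = 0.665 by limma, p = 0.0286 by exact permutation). Both exact p-values are the smallest their design allows, and neither comparison passed the adjusted threshold of 0.1. These comparisons share the wild-type libraries. Between *Ntn1SPKO* and *Foxd1GC* control kidneys the log2 fold change was 0.07 with a 95% interval of −0.62 to 0.77, which includes differences of either sign. All 3 *Ntn1SPKO* libraries held Y-linked transcripts, and with embryo sex as a covariate this value turned to −0.49, a difference from control replicate 2 alone. The value against wild-type kidneys was then −0.91, a difference from wild-type replicate 3 alone.

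*Jag1*, the most abundant ligand (chromosome 2, 137081456 to 137116644), was at 26.6, 28.7, 20.1 and 23.6 FPKM in wild-type replicates 1 to 4, at 15.9, 23.5 and 9.08 FPKM in *Foxd1GC* control replicates 1 to 3, and at 22.5, 19.3 and 19.9 FPKM in *Ntn1SPKO* replicates 1 to 3. *Foxd1GC* control replicates 3 and 1 held the lowest levels, and the range within the control group covered most of the range over all libraries. Between *Foxd1GC* control and wild-type kidneys the log2 fold change was −0.70 (SE 0.29, adjusted p = 0.665 by limma, p = 0.0571 by exact permutation). Without *Foxd1GC* control replicate 3, the library low in ureteric bud markers, it was −0.34 (adjusted p = 1 by limma), and without replicate 2 it was −1.02 (adjusted p = 0.214 by limma). Between *Ntn1SPKO* and *Foxd1GC* control kidneys it was 0.45 (95% interval −0.33 to 1.23), or 0.09 without *Foxd1GC* control replicate 3 and 0.77 without replicate 2. With embryo sex as a covariate it turned to −0.19, a difference from control replicate 2 alone. Against wild-type kidneys, *Ntn1SPKO* kidneys had a log2 fold change of −0.26 (95% interval −0.55 to 0.04, adjusted p = 0.941 by limma). With embryo sex as a covariate it was 0.03, a difference from wild-type replicate 3 alone.

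The level of *Jag1* went with the early nephron markers of the same library. The list of 10 such markers, *Lhx1*, *Pax8*, *Wnt4*, *Fgf8*, *Pou3f3*, *Ccnd1*, *Bmp2*, *Papss2*, *Irx1* and *Irx3*, includes no member of the Notch pathway, and all 10 passed a mean of 0.5 FPKM. Its sum was 246, 256, 221 and 243 FPKM in wild-type replicates 1 to 4, 170, 249 and 101 FPKM in *Foxd1GC* control replicates 1 to 3, and 231, 203 and 201 FPKM in *Ntn1SPKO* replicates 1 to 3. Set against 100 FPKM of these markers, *Jag1* came to between 8.99 FPKM in *Foxd1GC* control replicate 3 and 11.2 FPKM in wild-type replicate 2, so a range of 9.08 to 28.7 FPKM in its level narrowed to that span. In whole kidneys, fewer cells of a type and less RNA per cell cannot be told apart, and the part of the early nephron share in these differences was not tested.

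*Dll1* kept its order in part on the same scale. Per 100 FPKM of early nephron markers it came to 3.33, 2.57, 3.48 and 2.52 FPKM in wild-type replicates 1 to 4, to 2.05, 2.31 and 2.81 FPKM in *Foxd1GC* control replicates 1 to 3, and to 1.46, 1.89 and 2.55 FPKM in *Ntn1SPKO* replicates 1 to 3. The 3 groups overlap on this scale, with *Foxd1GC* control replicate 3 and *Ntn1SPKO* replicate 3 inside the wild-type range.

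**Figure D2:**
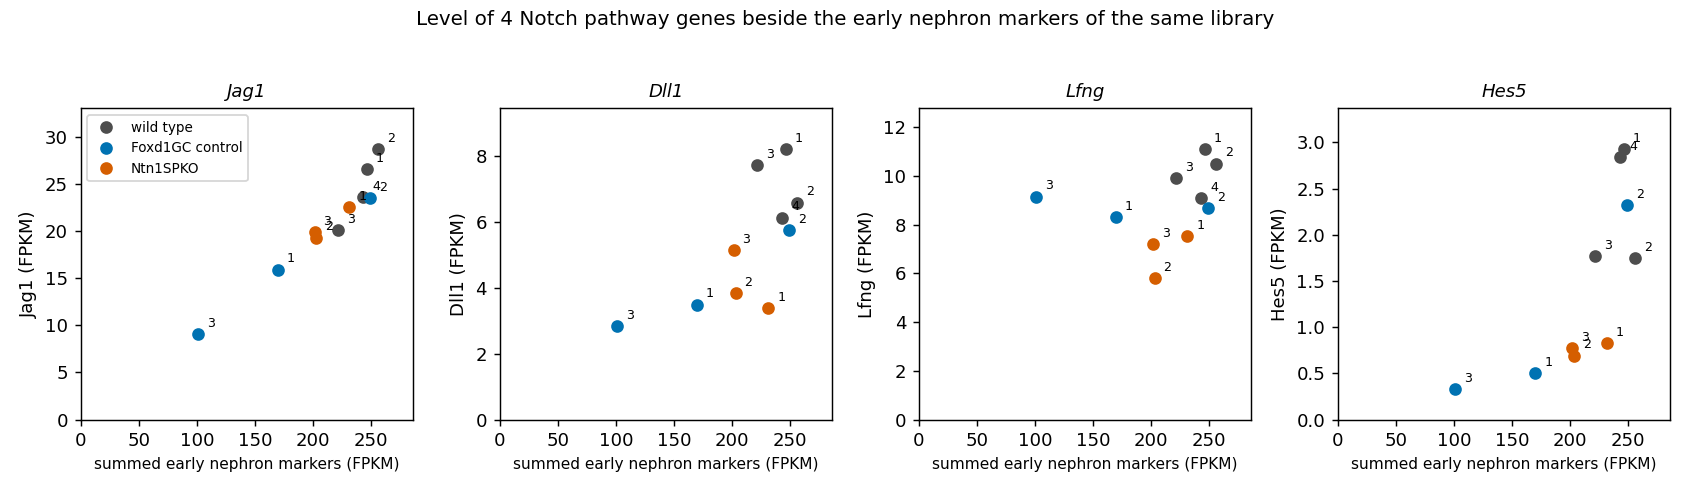
FPKM of *Jag1*, *Dll1*, *Lfng* and *Hes5* (vertical axes) against the summed FPKM of 10 early nephron markers (horizontal axes) in the 10 libraries, coloured by group, with digits giving the replicate. The *Jag1* points lie close to one line from *Foxd1GC* control replicate 3 (101 and 9.08 FPKM) to wild-type replicate 2 (256 and 28.7 FPKM), whereas *Lfng* in that control library (9.14 FPKM) is as high as in wild-type replicate 4.

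*Dll4*, an endothelial ligand of the Delta type (chromosome 2, 119325784 to 119335962), was at 2.89, 1.90, 2.70 and 2.20 FPKM in wild-type replicates 1 to 4, at 2.89, 2.74 and 3.64 FPKM in *Foxd1GC* control replicates 1 to 3, and at 2.96, 2.54 and 2.90 FPKM in *Ntn1SPKO* replicates 1 to 3. All 3 groups overlap. The log2 fold changes were −0.13 (95% interval −0.51 to 0.25) between *Ntn1SPKO* and control, 0.22 (−0.17 to 0.60) between *Ntn1SPKO* and wild-type, and 0.35 (−0.09 to 0.79) between control and wild-type kidneys. The first of these turned to 0.03 in the fit with embryo sex, which compares with control replicate 2 alone. The 12 endothelial markers summed to 195 to 245 FPKM in wild-type, 247 to 278 in control and 233 to 264 FPKM in *Ntn1SPKO* libraries, with all 3 controls above all 4 wild-type libraries, and the part of endothelial content in the level of *Dll4* was not tested.

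*Jag2* (chromosome 12, 112907819 to 112929776), the least abundant member, was at 2.22, 1.75, 1.43 and 1.28 FPKM in wild-type replicates 1 to 4, at 1.38, 4.00 and 3.18 FPKM in *Foxd1GC* control replicates 1 to 3, and at 1.47, 1.37 and 1.65 FPKM in *Ntn1SPKO* replicates 1 to 3. *Foxd1GC* control replicates 2 and 3 were above all other libraries, and control replicate 1 was within the range of the *Ntn1SPKO* libraries. The log2 fold change between *Ntn1SPKO* and control kidneys was −0.77 (SE 0.38, 95% interval −1.69 to 0.16, adjusted p = 0.451 by limma, p = 0.3 by exact permutation). It was −1.20 without *Foxd1GC* control replicate 1 (adjusted p = 0.536 by limma) and −0.47 without replicate 2 (adjusted p = 0.467 by limma). Between *Ntn1SPKO* and wild-type kidneys it was −0.12 (95% interval −0.61 to 0.36). These were −1.36 and 0.06 in the fit with embryo sex, as differences from control replicate 2 alone and from wild-type replicate 3 alone.

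*Lfng*, which encodes the fringe enzyme that modifies Notch receptors (chromosome 5, 140607320 to 140615545, ENSMUSG00000029570.5), was lowest in *Ntn1SPKO* kidneys. Its levels were 11.1, 10.5, 9.91 and 9.07 FPKM in wild-type replicates 1 to 4, 8.30, 8.66 and 9.14 FPKM in *Foxd1GC* control replicates 1 to 3, and 7.53, 5.79 and 7.21 FPKM in *Ntn1SPKO* replicates 1 to 3. All 3 *Ntn1SPKO* libraries were below all 7 others, while control replicate 3 reached into the wild-type range. Group means were 10.2 ± 0.884 FPKM (SD, n = 4), 8.70 ± 0.422 FPKM (n = 3) and 6.84 ± 0.925 FPKM (n = 3), so that the mean in *Ntn1SPKO* kidneys was 21.3% below that of control and 32.6% below that of wild-type kidneys.

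Between *Ntn1SPKO* and control kidneys the log2 fold change of *Lfng* was −0.35 (SE 0.12, 95% interval −0.64 to −0.06, adjusted p = 0.447 by limma, p = 0.1 by exact permutation). Between *Ntn1SPKO* and wild-type kidneys it was −0.57 (SE 0.12, 95% interval −0.84 to −0.30, adjusted p = 0.247 by limma, p = 0.0286 by exact permutation). Both exact p-values are the smallest possible, and neither limma value passed 0.1. Between control and wild-type kidneys the log2 fold change was −0.22 (95% interval −0.44 to 0.01, adjusted p = 0.665 by limma). Leaving out single libraries moved the difference from control over −0.42 to −0.24 and that from wild-type kidneys over −0.64 to −0.45, with the same sign each time.

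The sum of early nephron markers was 201 to 231 FPKM in *Ntn1SPKO* libraries, with 5.79 to 7.53 FPKM of *Lfng*, and 221 to 256 FPKM in wild-type libraries, with 9.07 to 11.1 FPKM of *Lfng*. Among the *Ntn1SPKO* libraries, replicate 1 had both the highest sum and the highest *Lfng*. Replicates 2 and 3 had nearly equal sums (203 and 201 FPKM) but 5.79 and 7.21 FPKM of *Lfng*. *Foxd1GC* control replicate 3, which stands apart by tissue markers, had the lowest sum (101 FPKM) beside 9.14 FPKM of *Lfng*. Per 100 FPKM of markers, *Lfng* came to 2.85 to 3.58 FPKM in *Ntn1SPKO*, 3.73 to 4.51 FPKM in wild-type and 3.48 to 9.05 FPKM in control libraries. On that scale *Ntn1SPKO* kidneys stayed below all wild-type libraries and overlapped the controls at replicate 2. The part of the early nephron share in the level of *Lfng* was not tested. In the fit with embryo sex, *Lfng* had a log2 fold change of −0.34 against control replicate 2 alone and −0.54 against wild-type replicate 3 alone.

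**Figure D3:**
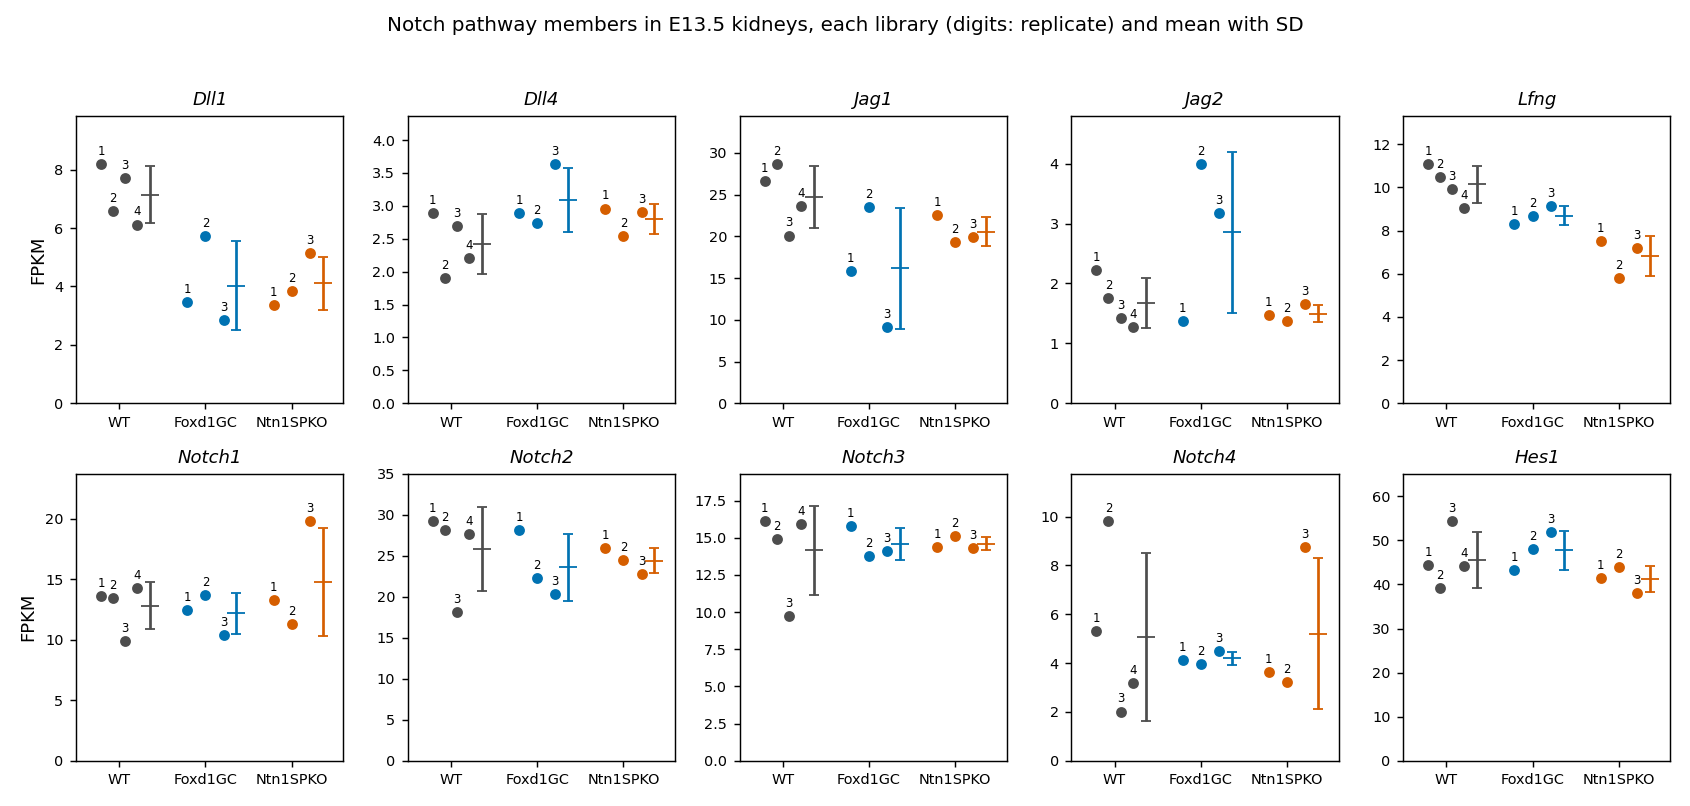
FPKM of the 10 members in each library (points, with digits giving the replicate) for wild-type (WT, n = 4), *Foxd1GC* control (n = 3) and *Ntn1SPKO* kidneys (n = 3), with the group mean and SD beside the points, each axis starting at 0. All *Ntn1SPKO* points of *Lfng* (5.79 to 7.53 FPKM) lie below the other groups, and all wild-type points of *Dll1* (6.12 to 8.20 FPKM) lie above them.

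Among the receptors, *Notch2* (chromosome 3, 98013527 to 98150361) was at 29.2, 28.1, 18.2 and 27.7 FPKM in wild-type replicates 1 to 4, at 28.2, 22.3 and 20.3 FPKM in *Foxd1GC* control replicates 1 to 3, and at 25.9, 24.5 and 22.8 FPKM in *Ntn1SPKO* replicates 1 to 3. The lowest and the highest level were both in wild-type libraries. The log2 fold changes were 0.06 (95% interval −0.26 to 0.38) between *Ntn1SPKO* and control, −0.06 (−0.44 to 0.33) between *Ntn1SPKO* and wild-type, and −0.12 (−0.56 to 0.33) between control and wild-type kidneys. Without wild-type replicate 3 the second of these was −0.22 (adjusted p = 0.474 by limma). With embryo sex as a covariate it turned to 0.42, in a fit that sets the *Ntn1SPKO* libraries against that same replicate alone.

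*Notch3* (chromosome 17, 32120820 to 32166852), a receptor known from mural cells of vessels, had the narrowest intervals of the receptors against controls. Its levels were 16.1, 14.9, 9.71 and 15.9 FPKM in wild-type replicates 1 to 4, 15.8, 13.8 and 14.1 FPKM in *Foxd1GC* control replicates 1 to 3, and 14.4, 15.1 and 14.3 FPKM in *Ntn1SPKO* replicates 1 to 3. Wild-type replicate 3 was the lowest library and the other 9 spanned 13.8 to 16.1 FPKM. The log2 fold change between *Ntn1SPKO* and control kidneys was 0.01 (95% interval −0.19 to 0.20). Between *Ntn1SPKO* and wild-type kidneys it was 0.08 (−0.33 to 0.48) with all libraries and −0.10 without wild-type replicate 3. With embryo sex as a covariate, again against that replicate alone, it was 0.59.

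*Notch1* (chromosome 2, 26457903 to 26516663) was at 13.6, 13.45, 9.94 and 14.3 FPKM in wild-type replicates 1 to 4, at 12.5, 13.7 and 10.4 FPKM in *Foxd1GC* control replicates 1 to 3, and at 13.3, 11.3 and 19.8 FPKM in *Ntn1SPKO* replicates 1 to 3. *Ntn1SPKO* replicate 3 stood above the other 9 libraries. The log2 fold change between *Ntn1SPKO* and control kidneys was 0.24 (95% interval −0.29 to 0.77) and between *Ntn1SPKO* and wild-type kidneys 0.18 (−0.30 to 0.66). The latter ranged from −0.05 to 0.35 when single libraries were left out. With embryo sex as a covariate it was 0.53, a difference from wild-type replicate 3 alone.

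*Notch4* (chromosome 17, 34564268 to 34588503), the endothelial receptor, varied most among the members, with an SD of 51.5% of its mean over the 10 libraries. It was at 5.31, 9.80, 2.02 and 3.17 FPKM in wild-type replicates 1 to 4, at 4.14, 3.96 and 4.50 FPKM in *Foxd1GC* control replicates 1 to 3, and at 3.65, 3.23 and 8.75 FPKM in *Ntn1SPKO* replicates 1 to 3. Wild-type replicate 2 and *Ntn1SPKO* replicate 3 held the high values, and their sums of 12 endothelial markers, 236 and 262 FPKM, were within the range of the other libraries (195 to 278 FPKM). The 95% intervals of its log2 fold changes were −0.72 to 1.04, −1.17 to 1.43 and −1.12 to 1.05 for *Ntn1SPKO* against control, *Ntn1SPKO* against wild-type and control against wild-type kidneys, so a 2-fold higher level lies inside all 3. Between *Ntn1SPKO* and wild-type kidneys the log2 fold change was 0.13, or 1.18 in the fit with embryo sex, a difference from wild-type replicate 3 alone.

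The low levels of *Notch1*, *Notch2*, *Notch3* and *Notch4* in wild-type replicate 3 stood beside the low levels of long genes in that library. The longest coding sequences of these receptors are 7593, 7419, 6954 and 5892 bases, so all 4 are in the class of at least 4000 bases, whereas *Lfng* has 1134 and *Hes1* 846 bases. Within wild-type kidneys, replicate 3 had the lowest level of each of the 4 receptors and the highest level of *Hes1*. Coding lengths of a gene were taken from its longest annotated coding transcript, and the part of length in these differences was not tested.

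**Figure D4:**
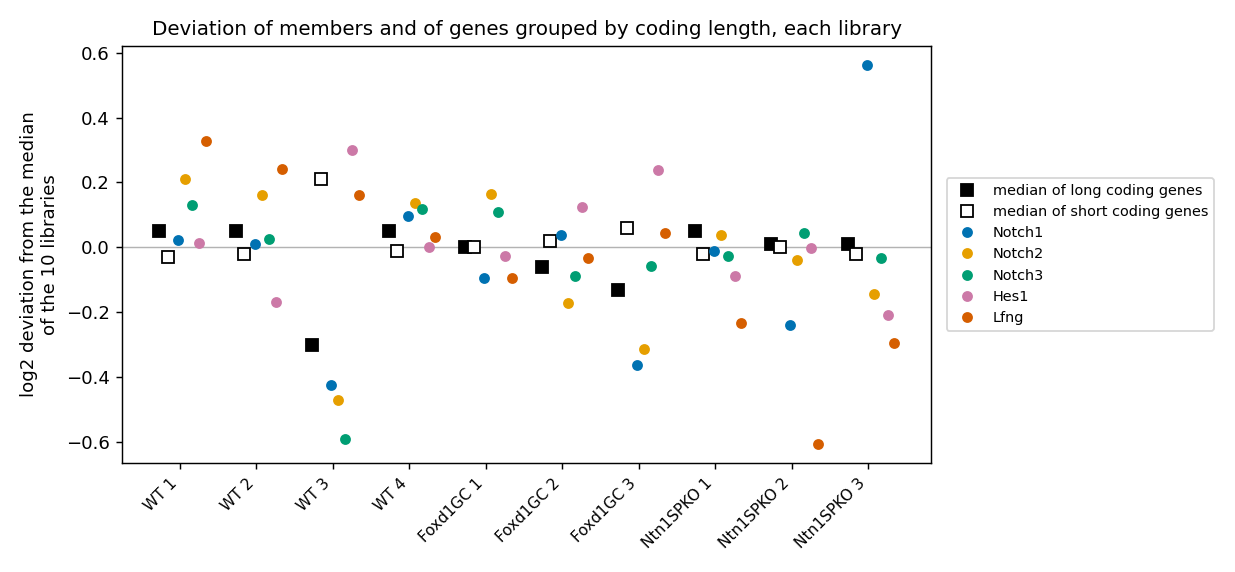
Log2 deviation of each library from the median of the 10 libraries for the median of long coding genes (filled squares, at least 4000 bases), the median of short coding genes (open squares, at most 1000 bases) and 5 members (coloured points). In wild-type (WT) replicate 3 the long genes (−0.30), *Notch1*, *Notch2* and *Notch3* are below 0 and the short genes (0.21) and *Hes1* are above it. *Lfng*, which is in neither length class, is above 0 there as in every wild-type library.

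*Hes1* (chromosome 16, 30064384 to 30067796, ENSMUSG00000022528.8), a transcriptional repressor that Notch switches on, was the most abundant and the least variable member, with an SD of 11.5% of its mean over the 10 libraries. It was at 44.4, 39.2, 54.3 and 44.1 FPKM in wild-type replicates 1 to 4, at 43.2, 48.0 and 52.0 FPKM in *Foxd1GC* control replicates 1 to 3, and at 41.4, 44.0 and 38.1 FPKM in *Ntn1SPKO* replicates 1 to 3. *Ntn1SPKO* replicate 2 was above control replicate 1, and the other *Ntn1SPKO* libraries were below all controls. The log2 fold change between *Ntn1SPKO* and control kidneys was −0.21 (SE 0.09, 95% interval −0.43 to 0.01, adjusted p = 0.447 by limma, p = 0.2 by exact permutation). Between *Ntn1SPKO* and wild-type kidneys it was −0.14 (95% interval −0.40 to 0.13), or −0.05 without wild-type replicate 3. With embryo sex as a covariate it was −0.40, a difference from wild-type replicate 3 alone. Between control and wild-type kidneys the log2 fold change was 0.07 (−0.21 to 0.36).

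At an adjusted limma p under 0.1 and a change of 2-fold or more, 0 of the 10 members were called in any comparison, where 0.055% of 14550 genes were called between *Ntn1SPKO* and control, 0.0485% of 14432 between *Ntn1SPKO* and wild-type, and 0.00685% of 14594 between control and wild-type kidneys. At an unadjusted p under 0.05, limma gave 1 member (*Lfng*, lower) between *Ntn1SPKO* and control kidneys, beside 5.17% of all genes that were lower at that limit. It gave 2 (*Dll1* and *Lfng*, both lower) between *Ntn1SPKO* and wild-type kidneys, beside 3.31%, and 2 (*Dll1* and *Jag1*, both lower) between control and wild-type kidneys, beside 3.23%. Groups did not overlap for 1, 2 and 1 members in these comparisons, all lower, beside 8.91%, 3.54% and 4.04% of all genes that were lower without overlap. With 10 members, the count of 1 between *Ntn1SPKO* and control kidneys is near that background.

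The members as a whole had no common direction. Their median log2 fold change was 0.03 between *Ntn1SPKO* and control, −0.09 between *Ntn1SPKO* and wild-type, and −0.05 between control and wild-type kidneys, beside medians over all genes of 0.01, 0.00 and −0.01. Of the 10, 4 were below 0 in the first comparison and 6 in each of the others. These 3 comparisons share libraries and are not independent of each other.

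**Figure D5:**
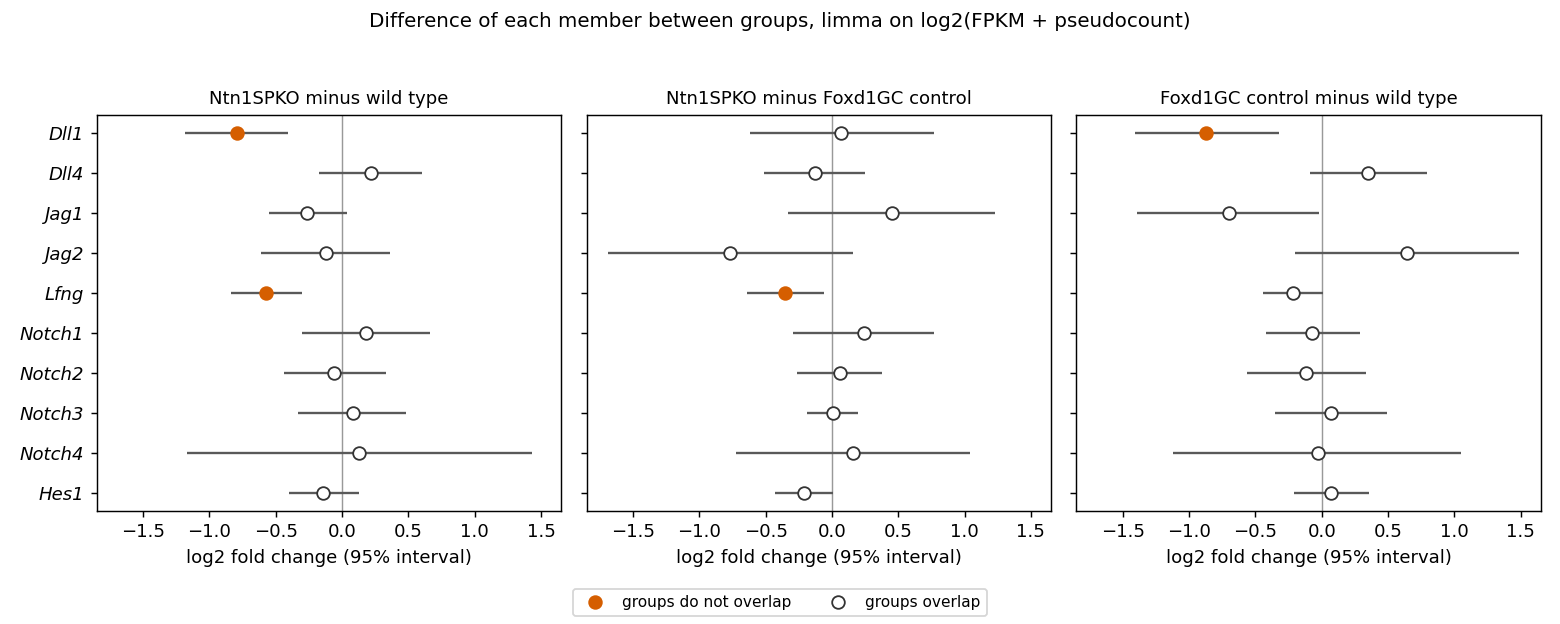
Log2 fold change of each member with its 95% interval from limma, for *Ntn1SPKO* against wild-type (left), *Ntn1SPKO* against *Foxd1GC* control (middle) and *Foxd1GC* control against wild-type kidneys (right), on one horizontal scale. Filled points mark members whose groups do not overlap: *Dll1* (−0.79) and *Lfng* (−0.57) on the left, *Lfng* (−0.35) in the middle and *Dll1* (−0.87) on the right.

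Of 51 further genes of the pathway, listed by role, 47, 48 and 48 passed the filter in the comparisons of *Ntn1SPKO* with control, *Ntn1SPKO* with wild-type, and control with wild-type kidneys. By limma, none was called at the limits above in any of them. At an unadjusted p under 0.05 the counts were 2 lower and 5 higher, 2 lower and 0 higher, and 3 lower and 1 higher, in the same order, beside 5.49%, 2.45% and 3.84% of all genes that were higher at that limit (the shares of lower ones are given above).

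The target genes included the largest difference from wild-type kidneys. *Hes5*, a repressor of the same family as *Hes1*, was at 2.93, 1.75, 1.77 and 2.84 FPKM in wild-type replicates 1 to 4, at 0.502, 2.32 and 0.333 FPKM in *Foxd1GC* control replicates 1 to 3, and at 0.827, 0.691 and 0.770 FPKM in *Ntn1SPKO* replicates 1 to 3. All 3 *Ntn1SPKO* libraries were below all 4 wild-type libraries, and the controls were split, with replicate 2 inside the wild-type range and replicates 1 and 3 below every *Ntn1SPKO* library. The log2 fold change of *Hes5* was −1.45 between *Ntn1SPKO* and wild-type kidneys (SE 0.23, adjusted p = 0.14 by limma, p = 0.0286 by exact permutation), −1.46 between control and wild-type kidneys (SE 0.57, adjusted p = 0.665 by limma), and 0.01 between *Ntn1SPKO* and control kidneys (95% interval −1.56 to 1.58). Per 100 FPKM of early nephron markers, *Hes5* came to 0.340 to 0.383 FPKM in *Ntn1SPKO*, 0.684 to 1.19 FPKM in wild-type, and 0.296, 0.932 and 0.330 FPKM in control libraries 1 to 3.

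The other targets differed less from wild-type kidneys than *Hes5* in log2 fold change, a contrast that was not tested. Of the 8 target genes listed, 7 passed the filter, and between *Ntn1SPKO* and wild-type kidneys 5 of these were below 0 with a median log2 fold change of −0.14. *Hey1* was at 17.4 ± 1.41 FPKM (SD, n = 4) in wild-type, 15.2 ± 5.81 FPKM in control (n = 3) and 17.1 ± 1.56 FPKM in *Ntn1SPKO* kidneys (n = 3), with a log2 fold change of −0.03 (95% interval −0.25 to 0.18) between the last and the first. *Nrarp*, a feedback inhibitor of the pathway, had a log2 fold change of −0.16 (95% interval −0.42 to 0.09) in that comparison and *Heyl* one of −0.24 (−0.55 to 0.07). Within the controls, replicate 2 held the highest level of *Hes5* and also of *Hey1* (21.8 FPKM), *Heyl* (16.8 FPKM), *Nrarp* (11.7 FPKM) and *Hey2* (3.61 FPKM). The same library held the lowest level of *Hes6* (16.9 FPKM), and *Hes1* was highest in control replicate 3 (52.0 FPKM). Control replicate 2 also had the highest early nephron sum of the controls (249 FPKM), and the part of that share in these levels was not tested.

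Among the proteases, *Adam17* was lower in *Foxd1GC* control kidneys than in both other groups. Its levels were 28.0, 22.7, 24.4 and 22.7 FPKM in wild-type replicates 1 to 4, 19.2, 20.4 and 19.8 FPKM in control replicates 1 to 3, and 25.9, 23.8 and 24.0 FPKM in *Ntn1SPKO* replicates 1 to 3. The controls did not overlap either group. The log2 fold change was 0.31 between *Ntn1SPKO* and control (SE 0.07, adjusted p = 0.447 by limma, p = 0.1 by exact permutation) and −0.30 between control and wild-type kidneys (SE 0.09, adjusted p = 0.665 by limma, p = 0.0286 by exact permutation). Between *Ntn1SPKO* and wild-type kidneys it was 0.01 (95% interval −0.20 to 0.21). *Adam10*, the other ADAM protease listed, had intervals of −0.07 to 0.25, −0.08 to 0.24 and −0.20 to 0.18 for *Ntn1SPKO* against control, *Ntn1SPKO* against wild-type and control against wild-type kidneys.

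In the nucleus, the 6 genes of the activating complex (*Rbpj*, *Maml1*, *Maml2*, *Maml3*, *Ep300* and *Snw1*) were all above 0 between *Ntn1SPKO* and control kidneys, with a median log2 fold change of 0.14 beside 0.01 for all genes. Of these, *Ep300*, an acetyltransferase, had an unadjusted limma p under 0.05, with a log2 fold change of 0.20 (adjusted p = 0.447). The 8 co-repressor genes listed had a median of 0.15 in that comparison, with 6 above 0. Between *Ntn1SPKO* and wild-type kidneys, all 6 activating genes were also above 0, with a median of 0.10 beside 0.00 for all genes. Between control and wild-type kidneys, 5 of the 6 activating genes were below 0, with a median of −0.07. The 3 *Ntn1SPKO* libraries did not overlap the controls for 12 of the 47 pathway genes tested, 2 lower and 10 higher, beside 8.91% of all genes lower and 11% higher without overlap. The co-repressor genes *Hdac1* (0.20) and *Tle3* (0.25), the ubiquitin ligase gene *Fbxw7* (0.25) and *Adam17* (0.31) were the other pathway genes higher at an unadjusted limma p under 0.05. The lower ones were *Numbl* (−0.40) and *Dtx3* (−0.50), listed as regulators of the receptors. All had a limma adjusted p of 0.447. Between control and wild-type kidneys, *Hdac1* was at −0.20 and *Numbl* at 0.33 (adjusted p = 0.665 for both), the opposite signs, in libraries that include the same controls.

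Of the fringe genes besides *Lfng*, *Mfng* had log2 fold changes of −0.03 (95% interval −0.40 to 0.35) between *Ntn1SPKO* and control and 0.24 (−0.06 to 0.53) between *Ntn1SPKO* and wild-type kidneys, and *Rfng* had −0.03 (−0.24 to 0.18) and 0.07 (−0.14 to 0.28). *Dlk1*, a non-canonical ligand, was at 161, 83.8 and 342 FPKM in control replicates 1 to 3, at 68.2, 68.8 and 94.3 FPKM in *Ntn1SPKO* replicates 1 to 3, and at 107, 89.3, 131 and 139 FPKM in wild-type replicates 1 to 4. Its log2 fold change was −0.59 (SE 0.18, adjusted p = 0.628 by limma) between *Ntn1SPKO* and wild-type kidneys, with groups that overlap. The control library with the highest level was replicate 3, which also had the highest sum of skeletal muscle markers, and the part of muscle tissue in this was not tested.

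Across the 10 libraries, the genes most like each member were ranked by Pearson's r of log2(FPKM + 0.1) over 13142 genes at a mean of 1 FPKM or more. These values are descriptions over 10 points that share library, group and tissue make-up, so no test goes with them. Among the closest genes to *Jag1* were *Kcnj16* (r = 0.987) and *Sim1* (0.984), and r for *Kcnj16* was 0.944 without *Foxd1GC* control replicate 3 and wild-type replicate 2, the libraries farthest from the median of *Jag1*. For *Dll1* they were *Cltrn* (r = 0.961), *Cpb2* (0.958) and *1700019D03Rik* (0.955), and for *Lfng* they were *Nagpa* (0.892), *Tprgl* (0.891) and *Rpp40* (0.886).

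Among the receptors, the closest genes to *Notch2* were *Phactr2* (r = 0.979), *Fat1* (0.959) and *Braf* (0.955), with *Arhgef17* (0.983) and *Lrrc8a* (0.957) among those of *Notch3* and *Gm49376* (0.932) and *Dennd4a* (0.885) among those of *Notch1*. The closest genes to *Notch4* were *Exoc6b* (0.910), *Phlpp1* (0.902) and *Mcam* (0.901). The r of *Lrrc8a* with *Notch3* was 0.431 without wild-type replicates 3 and 1, so it rested on these libraries. For *Dll4* they were *Nans* (r = 0.942), *Appl2* (0.930) and *Polrmt* (0.918), for *Jag2* *Wwp2* (0.959), *Lcp2* (0.940) and *Gm10337* (0.931), and for *Hes1* *Micos13* (0.951), *Enkd1* (0.946) and *Coa6* (0.938). Without the libraries farthest from the median of the member, r fell to 0.524 for *Lcp2* with *Jag2* and to 0.683 for *Dennd4a* with *Notch1*. It stayed at 0.965 for *Phactr2* with *Notch2*. No member was among the 3 genes most like another member. The member most like *Notch2* was *Notch3* (r = 0.843, Spearman's rho = 0.903), and the member most like *Jag1* was *Dll1* (r = 0.724, rho = 0.745).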

How the data were processed

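RNA was taken from whole E13.5 kidneys in 10 libraries. According to the study's methods, the authors quantified reads with Salmon against coding sequences of Ensembl GRCm38, used tximport to sum them to genes, and ran DESeq2. The submitters' processing notes also name bcl2fastq 2.17.1.14. The deposited values used here are FPKM from the authors, already scaled by median of ratios, and hold no counts. All 10 columns were assigned to groups by the labels' titles, and no column was left unused.

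Genes averaging 0.5 FPKM or more over the libraries of a fit entered the test, limma 3.58.1 under R 4.3.3 on log2(FPKM + 0.1) (eBayes with an intensity trend, Benjamini-Hochberg adjustment over all genes tested), in a fit of the 2 groups compared. Calls needed an adjusted p under 0.1 and a change of at least 2-fold. Exact permutation tests were two-sided (scipy 1.17.1). The steps were tested on simulated data. Symbols were matched to GENCODE M21 (GRCm38) and RefSeq promoter windows. The text names the 10 members, pathway genes at an unadjusted p under 0.05, the 3 genes most like each member (some are not reported here), and *Ntn1*. *Hes5* and *Adam17* also have library values, and *Adam10*, *Mfng*, *Rfng*, *Hey1*, *Heyl*, *Nrarp* and the full nuclear complex were named after their values were seen. The members and lists were chosen with earlier results of these data known. Alternatives were other pseudocounts, filters, scalings and limma settings, embryo sex as a covariate, the replicate number as a block, and leaving out each library. 14 marker lists were summed by library with no test. The main ones are given beside results. The nephron progenitor sum was 316 to 440 FPKM, podocyte 97.6 to 127, proximal tubule 10.1 to 16.8, arterial endothelial 89.5 to 106, mural 82.5 to 151, stroma 1071 to 2055, neural 13.4 to 25.7 and macrophage 25.6 to 58.0.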

Additional observations from a re-analysis of the deposited data

Results flagged for a closer look

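Among the 4 wild-type libraries, the level of *Notch2* in replicate 3 (18.2 FPKM) lay far from the others, with a gap to the nearest library of 0.867 of the group's whole range, which is past the 95% limit of Dixon's test for 4 samples. The level of *Ep300* in the same library (29.6 FPKM) had a ratio of 0.834, also past it. In all, 20 genes were checked in the wild-type group, of which 10 were members, and chance gives such a value in about 1 in 20 groups. *Notch3* (0.822) and *Notch1* (0.804) in that library came close to the limit. Both control and *Ntn1SPKO* groups have 3 libraries and were not checked. The log2 deviation of long coding genes in wild-type replicate 3 was −0.30, and its part in these values was not tested.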

How the results depend on the processing

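No member was called in any comparison by the main limma fit or under any alternative, where limma gave 1, 2 and 2 members at an unadjusted p under 0.05 in the main fit of *Ntn1SPKO* against control, *Ntn1SPKO* against wild-type, and control against wild-type kidneys. Of 530 values of single members under alternatives, 28 changed sign, and 15 of the 30 differences kept their sign throughout, among them those of *Lfng* in all comparisons and of *Dll1* against wild-type kidneys. With embryo sex as a covariate, the signs that changed gave log2 fold changes of −0.49 for *Dll1*, 0.03 for *Dll4* and −0.19 for *Jag1* between *Ntn1SPKO* and control, 0.42 for *Notch2*, 0.03 for *Jag1* and 0.06 for *Jag2* between *Ntn1SPKO* and wild-type, and 0.03 for *Notch4* between control and wild-type kidneys. That fit sets the *Ntn1SPKO* libraries, all with Y-linked transcripts, against control replicate 2 alone or against wild-type replicate 3 alone. Against the latter it also gave log2 fold changes of 0.59 for *Notch3*, −0.91 for *Dll1* and −0.40 for *Hes1*. All are under the 2-fold limit, so none of these could be called whatever its p. *Notch4* was at 1.18, over 2-fold, in the same fit. Quantile scaling turned *Notch3* between *Ntn1SPKO* and control to −0.0007.

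Leaving out single libraries turned the sign in some fits, over ranges of −0.04 to 0.19 for *Notch2*, −0.03 to 0.07 for *Notch3*, −0.28 to 0.42 for *Notch4* and −0.14 to 0.35 for *Dll1* between *Ntn1SPKO* and control, of −0.05 to 0.35 for *Notch1*, −0.22 to 0.01 for *Notch2*, −0.10 to 0.15 for *Notch3*, −0.31 to 0.52 for *Notch4* and −0.23 to 0.01 for *Jag2* between *Ntn1SPKO* and wild-type, and of −0.18 to 0.05 for *Notch1*, −0.10 to 0.14 for *Notch3* and −0.38 to 0.36 for *Notch4* between control and wild-type kidneys. Without control replicate 2, *Dll1* reached −1.15 against wild-type kidneys (limma adjusted p = 0.1), and without control replicate 3 it was −0.66 (adjusted p = 1). The cause of these changes was not tested. The depth of the libraries is unknown, so no counting error could be given.

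Same-numbered libraries had correlations of −0.04 to 0.08 between their deviations. The labels do not say whether the replicate numbers pair the samples, and so few libraries cannot settle it. The replicate block called 0 members in each comparison and gave −0.01 for *Notch4* between *Ntn1SPKO* and wild-type kidneys, the sign it turned. It gave −0.35 for *Lfng* between *Ntn1SPKO* and control kidneys (limma adjusted p = 0.444). Each *Foxd1GC* control library correlated best with the wild-type library of its own number, at only 0.04 to 0.08, and the reverse was not checked. In the other comparisons this did not hold for every *Ntn1SPKO* library. Values this small come from the data and not the design, and do not show pairing.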
